A study of Mus musculus with 5 samples.

Results

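The genes described here encode splicing factors and proteins of the small nuclear ribonucleoproteins (snRNPs). They are the 61 autosomal protein-coding genes of mm9 whose symbol begins with Sf3a, Sf3b, Snrp, Srsf, Hnrnp or Prpf, out of 21410 autosomal protein-coding genes in all, and 1 further gene with such a symbol, on the X chromosome, was left out. The data are ChIP-seq of double-positive (DP) thymocytes, the CD4+ CD8+ stage of T cell development, in 5 samples with 1 library each: H3K4me3 in WT and in Cxxc1-deficient cells, Cxxc1 in both genotypes, and WT input. Lists of enriched windows for WT H3K4me3, Cxxc1-deficient H3K4me3 and Cxxc1 were used; the Cxxc1 list names no genotype and was taken as WT from the study's methods, and the other libraries were not analysed here. WT mice carried Cxxc1 fl/fl, and Cxxc1-deficient mice Cxxc1 fl/fl with hCD2Cre, a recombinase driven by the human CD2 promoter that removes exons 4 and 5 of Cxxc1 from early thymocytes onwards and acts in other immune cells too. The mice were 3 to 4 weeks old unless the study specified otherwise. The sample titles call the deficient cells KO whereas their genotype label reads Cxxc1+/-; the titles were followed, and the H3K4me3 lists hold no measure of the deleted exons. With 1 library per group there is no replicate error and no test between genotypes, so intervals below are Wilson 95% intervals over genes or exact Poisson 95% intervals over tags, and both cover counting error only.

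Splicing removes introns from the pre-mRNA in the spliceosome, which is assembled from snRNPs. Snrp genes encode core Sm proteins and proteins particular to U1 and U2 snRNPs, Sf3a and Sf3b genes encode the U2 components that recognise the branch point, Prpf genes encode mainly tri-snRNP and Prp19 complex proteins, Srsf genes encode the serine/arginine-rich (SR) proteins that promote exon use, and Hnrnp genes encode nuclear RNA-binding proteins that often oppose it. Most of these are housekeeping functions. H3K4me3 marks the promoters of active genes, and one of the enzyme complexes that write it, built around Setd1, contains Cxxc1, whose zinc finger recognises CpG free of DNA methylation.

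Each list gives 200-bp windows inside enriched islands with a value in RPM, the tags per 1000000 mapped tags. A window that is not listed lay outside the called islands, so its signal is unknown and not 0, and "listed" is used in that sense. The value of 1 tag, read from the decimals that occur, corresponded to 9410000 to 9470000 tags for each H3K4me3 library and 9090000 to 9230000 for Cxxc1. The lists held 14237 WT, 2979 Cxxc1-deficient and 4352 Cxxc1 peaks, so the WT and deficient H3K4me3 lists differed in length at the same depth. Of 15 T lineage markers found in the annotation, 8 had a WT promoter window and 4 a Cxxc1-deficient one, and Cd4, Cd3d and Cd3g were without a WT window; of 20 markers of other thymic cells, 2 had a WT window (Cd79b at 0.4 RPM and Klf1 at 0.9 RPM) and 0 a deficient one.

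The sequences of 5 member promoters show what these genes offer to a CpG-binding protein. Each runs from 250 bases before the transcription start site (TSS) of the transcript with the most coding bases over 300 bases (mm9, strand of the gene), with CpG dinucleotides in capitals. Prpf4 and Hnrnpl had H3K4me3 in both lists, Snrpa only in the deficient list, Srsf2 only in the WT list and Srsf3 in neither. They lie at chr4:62069581-62069880 (plus strand), chr7:29595706-29596005 (plus), chr7:27981215-27981514 (minus), chr11:116714329-116714628 (minus) and chr17:29169368-29169667 (plus).
Prpf4: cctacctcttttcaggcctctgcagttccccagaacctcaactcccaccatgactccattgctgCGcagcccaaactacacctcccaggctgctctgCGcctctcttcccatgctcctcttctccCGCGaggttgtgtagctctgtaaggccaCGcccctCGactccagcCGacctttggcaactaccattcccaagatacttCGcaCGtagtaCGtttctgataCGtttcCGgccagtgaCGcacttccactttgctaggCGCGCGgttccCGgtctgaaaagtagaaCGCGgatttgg
Hnrnpl: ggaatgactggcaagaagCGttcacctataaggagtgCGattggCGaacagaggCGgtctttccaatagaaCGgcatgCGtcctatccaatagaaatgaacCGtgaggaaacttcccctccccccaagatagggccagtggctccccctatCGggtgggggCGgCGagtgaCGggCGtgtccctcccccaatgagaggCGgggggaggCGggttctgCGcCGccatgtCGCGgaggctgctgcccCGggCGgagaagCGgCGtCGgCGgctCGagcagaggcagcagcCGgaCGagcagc
Snrpa: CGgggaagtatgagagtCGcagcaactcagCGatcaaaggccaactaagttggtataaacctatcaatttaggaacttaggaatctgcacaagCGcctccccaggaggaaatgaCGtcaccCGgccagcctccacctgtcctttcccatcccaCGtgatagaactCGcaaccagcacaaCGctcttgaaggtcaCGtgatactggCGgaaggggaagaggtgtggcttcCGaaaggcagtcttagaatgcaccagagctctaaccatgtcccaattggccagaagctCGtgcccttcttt
Srsf2: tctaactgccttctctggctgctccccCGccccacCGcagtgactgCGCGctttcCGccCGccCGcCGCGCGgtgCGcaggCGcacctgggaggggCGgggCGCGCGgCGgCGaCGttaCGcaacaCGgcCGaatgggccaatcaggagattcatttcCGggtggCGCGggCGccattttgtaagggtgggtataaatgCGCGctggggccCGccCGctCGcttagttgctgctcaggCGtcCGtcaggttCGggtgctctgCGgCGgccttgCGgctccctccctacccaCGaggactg
Srsf3: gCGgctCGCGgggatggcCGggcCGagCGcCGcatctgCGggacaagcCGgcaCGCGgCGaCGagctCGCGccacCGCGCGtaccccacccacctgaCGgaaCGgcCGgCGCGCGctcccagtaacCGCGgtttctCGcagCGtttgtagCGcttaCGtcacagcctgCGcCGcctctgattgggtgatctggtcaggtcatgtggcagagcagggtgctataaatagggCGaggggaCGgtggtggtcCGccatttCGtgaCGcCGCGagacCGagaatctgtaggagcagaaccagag
The stretches held 19 CpG at Prpf4, 27 at Hnrnpl, 13 at Snrpa, 38 at Srsf2 and 40 at Srsf3. Both Srsf2 and Srsf3, listed in WT and in neither list, were thus dense in CpG.

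WT H3K4me3 stood at the promoters of most members. A window within 1 kb of an annotated TSS was listed for 42 of 61 members (68.9%, 56.4 to 79.1), against 32.5% of all autosomal protein-coding genes. The 8 Sf3a and Sf3b genes were all marked, followed by 14 of 17 Hnrnp genes, 8 of 11 Srsf genes, 8 of 13 Prpf genes and 4 of 12 Snrp genes. The Sf3 interval (67.6% to 100%) and the Snrp interval (13.8% to 60.9%) did not overlap, although the sets are small. Among the Snrp genes the marked ones were Snrpd2, Snrpd3 and Snrpf, core Sm proteins, and Snrpn.

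The 19 members with no listed WT promoter window were Hnrnpa0, Hnrnpc, Hnrnpul2, Prpf18, Prpf3, Prpf38a, Prpf39, Prpf8, Snrpa, Snrpa1, Snrpb, Snrpb2, Snrpc, Snrpd1, Snrpe, Snrpg, Srsf3, Srsf4 and Srsf6. They include central parts of the machine, such as Prpf8, the protein at the catalytic core. Since unlisted windows have no value, these genes are not shown to lack the mark.

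**Figure D1:**
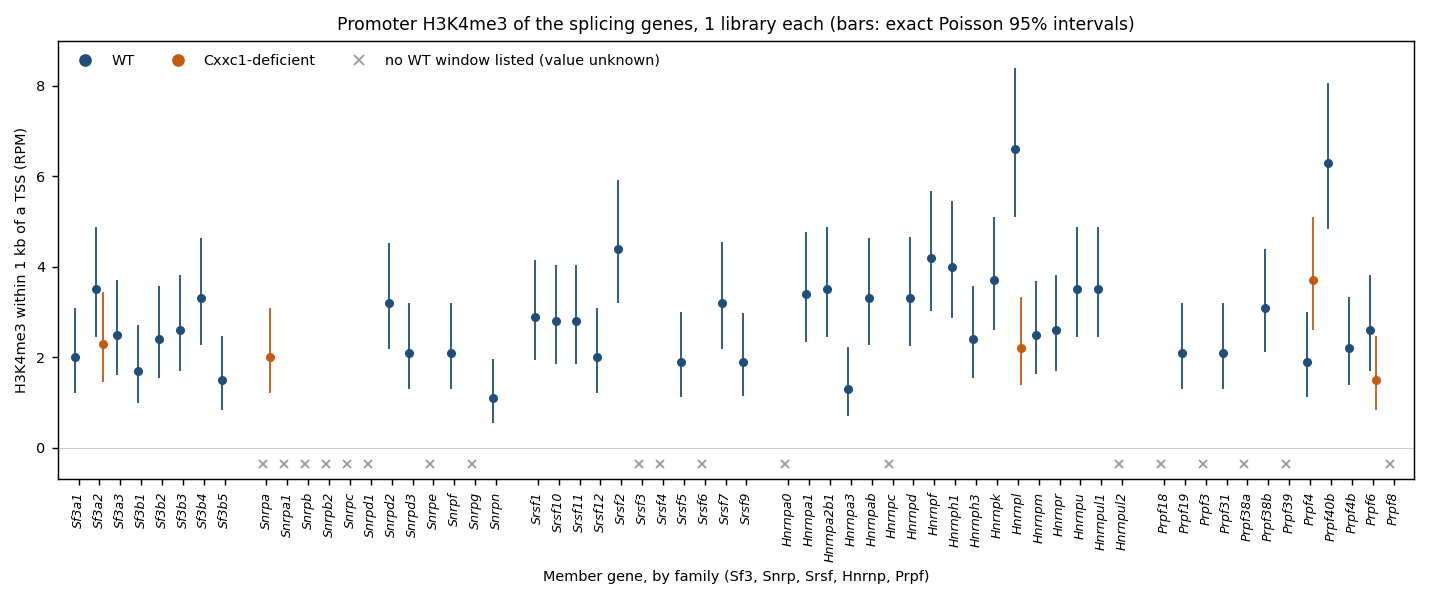
H3K4me3 in RPM summed over listed windows within 1 kb of a TSS (vertical axis) for each member (horizontal axis, grouped by family), with 1 WT library (blue) and 1 Cxxc1-deficient library (orange). Bars are exact Poisson 95% intervals of the tags and grey crosses mark the 19 members with no listed WT window; 60 members are drawn, and 5 of them carry an orange point.

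In strength the marked members were spread about as widely as all marked genes, with promoter RPM quartiles of 2.1 and 3.4 against 1.9 and 3.0. Promoter RPM ran from 1.1 to 6.6 with a median of 2.7 (95% interval of the median 2.4 to 3.2), against 2.4 over all 6950 marked genes. By family the median was 3.5 RPM for Hnrnp, 2.8 for Srsf, 2.5 for Sf3, 2.4 for Prpf and 2.1 for Snrp. The intervals, not given for the 4 Snrp genes, were 2.5 to 4.0, 1.9 to 4.4, 1.5 to 3.5 and 1.9 to 6.3, and overlapped. These sums grow with the number of listed windows. By mean window the medians were 0.43 RPM for Sf3 and for Prpf, 0.41 for Hnrnp, 0.40 for Srsf and 0.36 for Snrp. Over all marked members that median was 0.41 RPM, against 0.40 RPM over all marked genes. The highest sum was that of Hnrnpl, a regulator of alternative splicing in T cells, at 6.6 RPM or 66 tags (51.0 to 84.0). It has 5 annotated TSSs, and the sum covers 18 windows. Its mean window, 0.37 RPM, was below the median of 0.41 RPM over marked members, so its rank came from many windows. Prpf40b, a U1-associated factor with 8 annotated TSSs, followed at 6.3 RPM, and its sum combines 2 separate promoter peaks. These were followed by the SR protein gene Srsf2 at 4.4 RPM, Hnrnpf at 4.2, Hnrnph1 at 4.0 and Hnrnpk at 3.7, and by Sf3a2, Hnrnpa2b1, Hnrnpu and Hnrnpul1 at 3.5 each. From Srsf2 (44 tags, 32.0 to 59.1) down to Hnrnpa2b1 (35 tags, 24.4 to 48.7) the intervals overlapped, so the order within that group is not resolved.

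The weakest marked promoter was that of Snrpn, an imprinted gene for an Sm protein of brain, at 1.1 RPM or 11 tags (5.5 to 19.7). Its 3 windows lay within 1 kb of a downstream TSS. They belonged to a peak at chr7:67148001-67149800, in an intron far inside the gene (chr7:67127388-67285105), that touched no exon. Hnrnpa3 had 1.3 RPM, Sf3b5, the smallest Sf3b subunit, 1.5 RPM and Sf3b1, the branch point protein, 1.7 RPM. Prpf4, Srsf5 and Srsf9 tied at 1.9 RPM.

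The median WT promoter peak of members was 1600 bp wide, the same as over all marked genes. The widest was that of Hnrnpl, 6400 bp at chr7:29592801-29599200, which covered the upstream and the main TSS and held 8.7 RPM over its full length. Hnrnpa2b1 (3200 bp), Hnrnpf (3000 bp), Prpf40b (3000 bp) and Snrpd2 (2600 bp) followed. The Hnrnpa2b1 peak also covered the TSS of Cbx3, a heterochromatin protein gene transcribed from the same region, the Hnrnpf peak that of 4933440N22Rik and the Snrpd2 peak that of Qpctl, or came within 1 kb of it, so their width cannot be given to 1 gene.

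Around the main TSS the mark peaked just downstream. Of the 42 WT-marked members, 83.3% had a listed window in the first 200 bp downstream of the TSS and 73.8% in the 200 bp upstream, against 76.1% and 71.8% of all WT-marked genes. Within 1 kb, 53.8% of the members' RPM lay downstream, and 59.3% in the 24 members with no TSS of another protein-coding gene nearby, against 56.2% and 59.0% over all genes. The profile of the members was thus close to that of other marked genes.

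**Figure D2:**
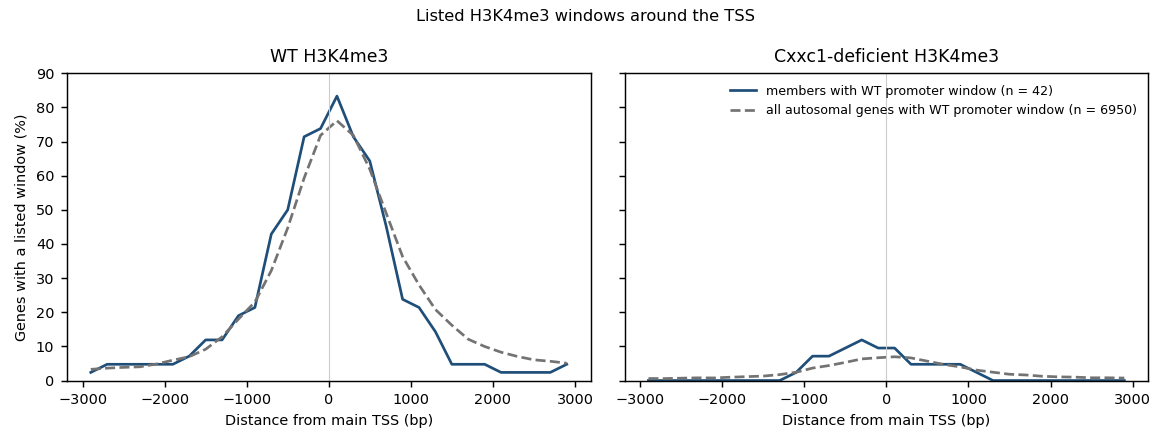
Share of genes with a listed H3K4me3 window (vertical axis, %) by distance from the main TSS in bp (horizontal axis, negative upstream), in WT (left) and Cxxc1-deficient cells (right), for the 42 WT-marked members (solid) and all 6950 WT-marked autosomal genes (dashed). The members reach 83.3% just downstream of the TSS in WT and no more than 11.9% in the deficient list.

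Without Cxxc1 the mark was listed at few of these promoters. RPM is relative to the library's own total, and in bulk chromatin fewer marked cells and less mark per cell cannot be told apart. A Cxxc1-deficient window stood within 1 kb of a TSS for 6 of 61 members (9.84%, 4.59 to 19.8), against 6.10% of all genes. Among genes with no neighbouring TSS the order was turned, with 1 of 40 members (2.50%) against 5.18%. Of the 42 WT-marked members, 5 were also listed in the deficient cells (11.9%, 5.19 to 25), against 12.8% of all WT-marked genes, so the share was near the background. Among them were Hnrnpl, Prpf4, Prpf6 and Sf3a2. By family they were 3 of 8 marked Prpf genes (13.7% to 69.4%), 1 of 8 Sf3 genes, 1 of 14 Hnrnp genes, 0 of 8 Srsf genes (0% to 32.4%) and 0 of 4 Snrp genes. The Prpf and Srsf intervals overlapped, and Prpf6 had no window in common between the lists. Of the 19 members without a WT window, only Snrpa had a deficient one, against 2.90% of all such genes.

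The members that were no longer listed had not all been weak. Of these 37, 31 had a WT peak above the median peak of the deficient list (2.0 RPM) and 17 a peak above its 90th percentile (2.9 RPM). Such peaks were not particular to the members. Over all 6950 WT-marked genes the WT promoter peak had a median of 2.6 RPM and quartiles of 2.0 and 3.4 RPM. The matching shares of all genes no longer listed were not computed. Srsf2, at 4.4 RPM over 9 windows in WT, and Prpf40b, at 6.3 RPM over 18 windows, had no deficient window within 1 kb. Across all WT-marked genes the listed share rose with WT strength, from 9.95% among genes of up to 1.9 RPM to 18.3% among those of 3.1 RPM and more. In the members it was 1 of 7 up to 1.9 RPM, 0 of 9 from 2.0 to 2.4 RPM, 1 of 8 from 2.5 to 3.0 RPM and 3 of 18 above that.

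Members listed in both cell types differed in what was retained. At Hnrnpl the WT sum was 6.6 RPM over 18 windows and the deficient sum 2.2 RPM over 6 windows, or 66 tags (51.0 to 84.0) against 22 (13.8 to 33.3), and the intervals did not overlap. The deficient peak, at chr7:29595001-29596600, was 1600 bp wide and sat at the main TSS inside the wide WT peak. In the 5 windows listed in both, however, the values were 2.0 RPM in WT and 1.7 RPM in deficient cells, so the lists differed mainly in how many windows were listed.

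Prpf4, a protein of the U4/U6 snRNP, went the other way. It had 1.9 RPM over 4 windows in WT and 3.7 RPM over 11 windows in deficient cells, or 18 tags (10.7 to 28.4) against 37 (26.1 to 51.0), with intervals that overlapped slightly. Its peak was 800 bp wide in WT and 2200 bp in the deficient cells (chr4:62068801-62071000). In the 4 shared windows the sums were 1.9 and 1.4 RPM. Sf3a2, a subunit of the SF3a complex, had 3.5 RPM over 9 windows in WT and 2.3 RPM over 6 windows in deficient cells. In tags these were 35 (24.4 to 48.7) against 23 (14.6 to 34.5). In the 3 shared windows the sums were 1.4 and 1.3 RPM. The Sf3a2 intervals overlapped broadly.

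Prpf6, a bridging protein of the tri-snRNP, was listed in both cell types but at different places. The WT peak (2.6 RPM within 1 kb, chr2:181326201-181327800) lay at the outermost TSS, position 181326573, whereas the deficient peak (1.5 RPM, chr2:181335601-181336200) lay at an internal annotated TSS, position 181336021, and 0 windows were shared. Snrpa, the U1 snRNP protein A, had 2.0 RPM or 20 tags (12.2 to 30.9) over 5 windows in the deficient cells, in a peak at chr7:27980201-27982400, and no WT window.

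**Figure D3:**
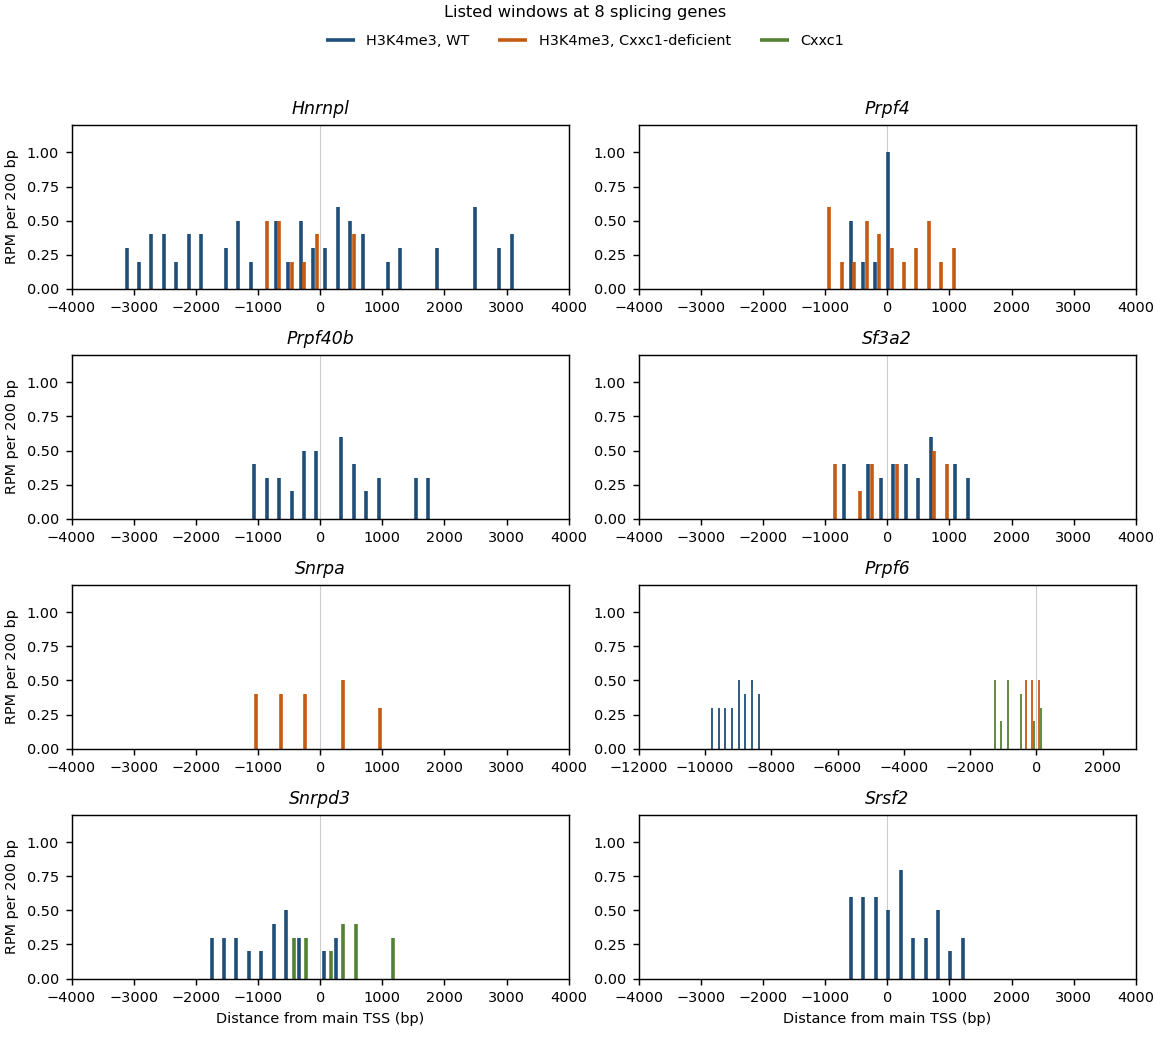
RPM of each listed 200-bp window (vertical axis) by distance from the main TSS in bp (horizontal axis, negative upstream) at 8 members, for WT H3K4me3 (blue), Cxxc1-deficient H3K4me3 (orange) and Cxxc1 (green), with bars of the 3 lists drawn 60 bp apart so that they stay visible. The Prpf6 axis is wider than the others, and its WT windows lie apart from the deficient and Cxxc1 windows.

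Many members share their promoter region with another gene. A TSS of another protein-coding gene lay within 1 kb for 21 of 61 members (34.4%, 23.7 to 47.0), against 12.5% of all genes. In like gene sets, described below, the share was 28.1% for RNA polymerase and Mediator genes, inside the members' interval. It lay below that interval for other splicing genes (15 of 75), proteasome genes (19.6%) and translation factor genes (15.4%). Among all genes with a CpG-rich promoter, defined below, the share was 20.9%, also below the members' interval. Of the 6 members with a deficient window, all but Hnrnpl had such a neighbour, among them Sf3a2 with Plekhj1, Prpf4 with Cdc26, Snrpa with BC024978 and Prpf6 with Znf512b. Over all genes, 248 of the 888 in both H3K4me3 lists had one. The share among all genes with a deficient window was not computed, and 6 members are few. At Prpf6 the deficient peak itself had no other TSS within 1 kb. The mark was listed without Cxxc1 at 4 of 18 WT-marked members with a neighbour (22.2%, 9 to 45.2) and 1 of 24 without (4.17%, 0.739 to 20.2), and at 16.0% and 11.8% of all WT-marked genes. The member intervals overlapped, and the windows cannot be assigned to 1 of the 2 genes.

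Promoter CpG content was high, whether or not the mark was listed. A CpG-rich promoter, meaning GC of at least 55% with at least 0.65 of the CpG dinucleotides that its base content predicts within 500 bp of the outermost TSS, was found for 43 of 61 members (70.5%, 58.1 to 80.4) against 36.2% of all genes. The median CpG ratio, observed over predicted, was 0.84 in the 42 WT-marked members and 0.84 in the 19 others. Over all genes it was 0.75 in marked and 0.37 in unmarked genes. That wide gap was not seen in like gene sets, described below, either. The marked and unmarked medians were 0.85 and 0.83 in 75 other splicing genes. They were 0.86 and 0.80 in translation factor genes, 0.73 and 0.76 in RNA polymerase and Mediator genes, and 0.67 and 0.75 in proteasome genes. A high CpG-rich share was not particular to the members either. It was 75.4% for translation factor genes, 65.3% for the other splicing genes, 54.4% for RNA polymerase and Mediator genes and 49.0% for proteasome genes. Among CpG-rich genes alone, 30 of 43 members were WT-marked (69.8%, 54.9 to 81.4), against 56.9% of all CpG-rich genes, a value inside the members' interval. Of the 12 Snrp genes 6 were CpG-rich, and 1 of these 6 was marked.

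**Figure D4:**
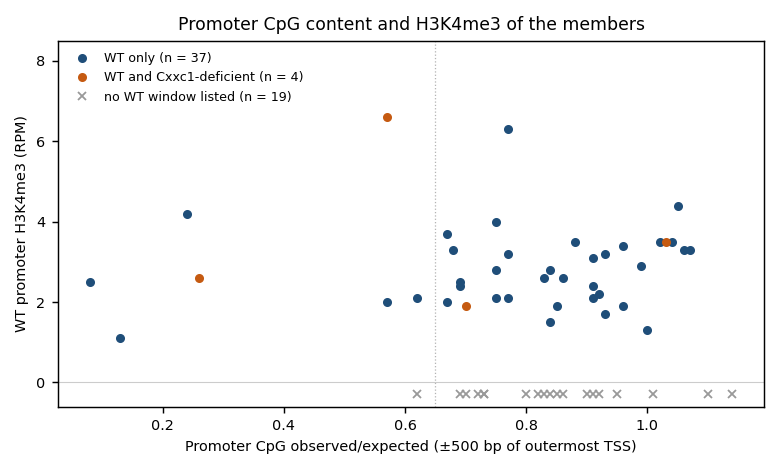
WT promoter H3K4me3 in RPM (vertical axis) against the observed to expected CpG ratio within 500 bp of the outermost TSS (horizontal axis) for members listed only in WT (blue), in both H3K4me3 lists (orange), and with no WT window (grey crosses, placed below 0 because they have no value). The dotted line is the ratio of 0.65, 60 members are drawn, and the crosses cover much the same ratios as most blue points. The RPM can come from another TSS than the ratio. At Hnrnpf (ratio 0.24), Snrpn (0.13) and Hnrnpm (0.08) the WT peak lies downstream of the outermost TSS.

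The 300-bp promoters were searched on both strands for 7 short motifs. The GC box GGGCGG was in 37 of 61 members (60.7%), against 44.9% of all promoters and 76.7% of CpG-rich ones. CCAAT was in 34 (55.7%, 43.3 to 67.5), against 37.3% and 35.9%. The ETS motif CCGGAAG was in 18 (29.5%, 19.6 to 41.9), against 11.1% and 18.2%. The CRE TGACGTCA was in 2 members (3.28%, against 2.33% of all promoters) and AAGATGGC, of YY1, in 3 (4.92% against 3.45%), with the share of all promoters inside the members' interval for both. TATAAA was in 5 members (8.20%, 3.55 to 17.8), against 13.5% of all and 5.15% of CpG-rich promoters. The NRF1 motif GCGCATGC was in 0 of 61 (0% to 5.92%), against 3.35% of all and 5.85% of CpG-rich promoters. For TATAAA and the NRF1 motif both comparison shares lay inside the members' interval. The motifs do not contain one another, and a match describes letters and not binding.

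Cxxc1 itself was listed at few members. A Cxxc1 window lay within 1 kb of a TSS at 2 of 61 members, Snrpd3 and Prpf6 (3.28%, 0.904 to 11.2), against 2.03% of all genes, and between the first and last base of 3 members (4.92%, 1.69 to 13.5), with Prpf18 added, against 9.57% of all genes. Taking in 10 kb upstream of the gene gave 5 of 61 members (8.20%), with Hnrnpab (1.7 RPM) and Snrpg (1.5 RPM) added, against 11.6% of all genes. So of the 37 WT-marked members that were not listed in the deficient cells, Snrpd3 alone had a Cxxc1 window at the promoter. A Cxxc1 window of the highest value in each of the 3 genes is given with its strand and with CpG in capitals; at Snrpd3 (0.4 RPM) and Prpf6 (0.5 RPM) 2 windows tied and the one with the lower coordinate is shown. They lie at chr10:74981001-74981200 (plus), chr2:181334601-181334800 (plus) and chr2:4567001-4567200 (minus).
Snrpd3: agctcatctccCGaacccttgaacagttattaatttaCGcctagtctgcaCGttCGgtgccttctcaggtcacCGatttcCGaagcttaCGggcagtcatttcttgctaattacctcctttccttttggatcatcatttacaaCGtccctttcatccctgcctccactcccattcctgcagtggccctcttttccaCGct
Prpf6: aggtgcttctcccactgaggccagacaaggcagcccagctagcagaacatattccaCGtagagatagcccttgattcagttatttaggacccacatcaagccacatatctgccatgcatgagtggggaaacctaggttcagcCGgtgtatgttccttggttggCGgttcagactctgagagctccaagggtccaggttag
Prpf18: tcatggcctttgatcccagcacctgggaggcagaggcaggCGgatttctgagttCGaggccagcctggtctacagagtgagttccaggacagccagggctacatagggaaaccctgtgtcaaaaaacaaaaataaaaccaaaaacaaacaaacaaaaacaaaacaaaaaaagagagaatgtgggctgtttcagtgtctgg
The windows shown held 9, 3 and 2 CpG. At Snrpd3, a core Sm protein gene, the Cxxc1 peak had 1.9 RPM or 19 tags (11.4 to 29.7), beside a WT H3K4me3 sum of 2.1 RPM and no deficient window, and 1110038D17Rik starts within 1 kb. At Prpf6 the Cxxc1 peak (2.1 RPM, 21 tags, 13 to 32.1, chr2:181334601-181336200) had a TSS of Samd10 within 1 kb and covered the internal TSS of Prpf6, where H3K4me3 was listed in the deficient and not in the WT cells. At Prpf18 the peak (2.2 RPM, chr2:4566601-4567600) had its midpoint in an intron and also touched an exon, and no H3K4me3 was listed at the promoter. Its strongest window, at 1.1 RPM, is repetitive: a stretch of 30 bases, from base 26 to base 55, occurs 17184 times in mm9, counting exact matches on both strands. That stretch was chosen after the sequence had been read.

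Inside the genes, beyond 1 kb of every TSS, WT H3K4me3 was listed for 12 of 61 members (19.7%, 11.6 to 31.3), against 21.3% of all genes. The direction of this difference depended on the distance, with 39.3% of members against 28.7% of all genes beyond 500 bp and 8.20% against 16.1% beyond 2 kb. Among WT-marked genes the share was 28.6% for members (17.2 to 43.6) and 43.8% for all. Separate WT peaks that touched the gene and not its promoter were at Hnrnpul1 (2.7 RPM, in an intron), Hnrnpf (2.3 RPM, in an exon), Prpf40b (2.1 RPM), Hnrnpl (1.9 RPM, near the end of the gene) and Prpf4, where the peak lies at the start of the neighbouring Rnf183. In the other members the windows belonged to a promoter peak. In the deficient cells 1 member had such windows, against 5.89% of all genes. This was Hnrnpab, with a peak of 3.1 RPM or 31 tags (21.1 to 44.0) at chr11:51414001-51416200, which overlaps Agxt2l2; its promoter, at 3.3 RPM in WT, had no deficient window.

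A second list of 79 splicing genes with other symbols, of which 75 were found on the autosomes, was read in the same way. WT H3K4me3 was listed at 41 of 75 promoters (54.7%, 43.4 to 65.4), and the deficient list held 7 of these 41 (17.1%, 8.53 to 31.3). The 7 were U2af2 (4.2 RPM in WT and 2.2 in deficient cells), which recognises the polypyrimidine tract, Khdrbs1 (4.3 and 1.8), Tardbp (3.5 and 2.7), Srrm1 (3.4 and 1.7), Smndc1 (3.4 and 1.4), Sf1 (2.3 and 3.0) and Cdc5l (2.2 and 2.4). WT promoter shares were 51.0% for 51 proteasome genes, 44.6% for 65 translation factor genes and 47.4% for 57 RNA polymerase and Mediator genes. The members' interval (56.4 to 79.1) lay above the share of all genes. It overlapped that of each of these 3 sets, for translation factor genes (33.2 to 56.7) only at the edge. Overlap of intervals does not test a difference. The listed shares without Cxxc1 (19.2%, 17.2% and 7.41%) had intervals that overlapped that of the members.

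**Figure D5:**
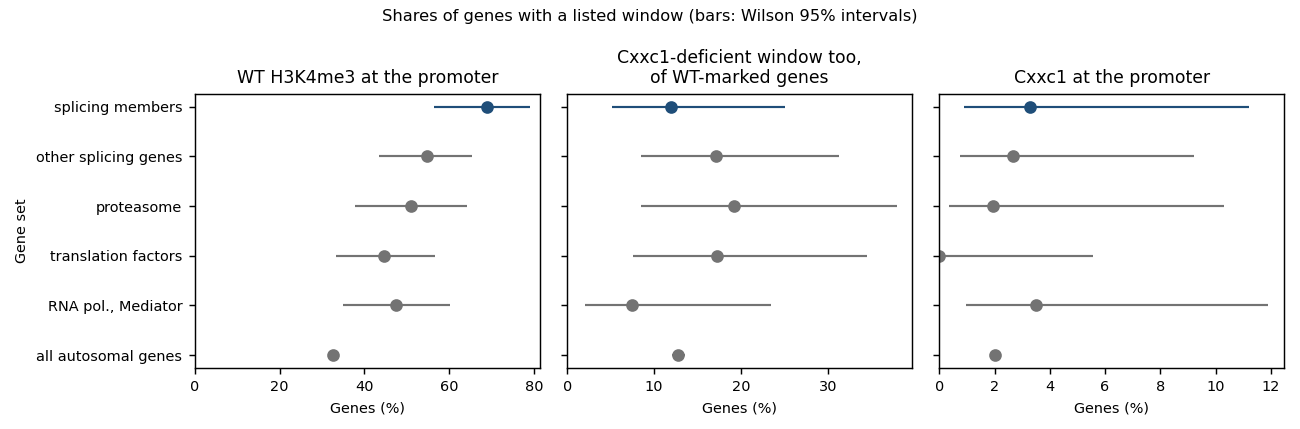
Share of genes (horizontal axes, %) with a WT promoter H3K4me3 window (left), with a Cxxc1-deficient one among WT-marked genes (middle) and with a Cxxc1 window at the promoter (right), for 6 gene sets (vertical axis), with Wilson 95% intervals. In the left panel the members lie highest, at 68.9%; in the middle panel their interval includes the 12.8% of all genes.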

How the data were processed

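ChIP-seq of DP thymocytes gave 1 library for each of 5 samples. Per the study's methods, the authors sequenced 50-bp reads (CASAVA 1.8.2), mapped them to mm9, kept unique reads and called islands with SICER 1.1 against input and Cxxc1-deficient ChIP; which control served H3K4me3, the aligner and the treatment of duplicates are not given in the sources used here, and each can change which windows are listed. The authors deposited RPM per 200-bp window at 1 decimal, for called islands only. Genes and TSSs came from GENCODE vM1 and sequences from the mm9 genome. Windows were joined into a peak across gaps of up to 2 unlisted windows. Tags per window were RPM divided by the value of 1 tag, inferred from which decimals occur where windows are plentiful; members' tag numbers were the same at either end of the inferred range. Scripts were tested on simulated data. Tools were Python 3.11.15, numpy 2.4.6, scipy 1.17.1, pysam 0.24.0 and samtools 1.23.1. Values are given for members listed in both H3K4me3 lists, only in the deficient list or with Cxxc1 windows, for the 10 highest, 5 lowest and 5 widest WT promoters with ties, and for other genes where a result turns on them. The own values of 1 member are not reported here, though it is counted in all shares and medians. Members and lists were chosen with earlier results of these data known.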

Additional observations from a re-analysis of the deposited data

How the results depend on the processing

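With 1 library per group, replicate error is not known, and no replicate could be left out. No paired analysis was possible because no group had a second library and nothing was tested. The 9 results were recomputed 39 times under other settings, and 31 of these values lay within the 95% interval of the reported one while 8 lay outside it. With the stronger 50% of peaks, the share of members with WT promoter H3K4me3 fell to 49.2%, against 21.0% of all genes. Without members that have a neighbouring TSS, the share with a Cxxc1-deficient window was 2.50%, against 5.18% of all genes, the share of WT-marked members also listed without Cxxc1 was 4.17%, against 11.8% of all genes, and the share with a Cxxc1 window at the promoter was 0 of 40, against 2.07%. Counting 500 bp as promoter gave a median of 2.0 RPM and moved the share with WT H3K4me3 inside the gene to 39.3%, against 28.7% of all genes, and counting 2 kb moved that share to 8.20%, against 16.1%. Joining no missing window gave a median width of 1200 bp. The CpG-rich share was also computed at the TSS of the transcript with the most coding bases, a choice made after seeing the data, and was again 70.5%. Depth was not varied.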
